A study of Mus musculus with 4 samples.

Results

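The genes described here are the 146 mouse protein-coding genes named Zfp100 to Zfp599 with no letter after the number, out of 21887 protein-coding genes on the assembled chromosomes of GRCm38 (mm10). The rule uses the name and no measured value. A member was called marked in a library when the summit of a peak, its highest point, lay within 1 kb of either end of the gene. It was called clustered when another protein-coding gene named Zfp plus a number lay within 100 kb, which held for 72 members, and isolated otherwise, which held for 74. Chromosome 7 alone carried 40 members, 30 of them clustered, and chromosome 13 carried 16, of which 9 were clustered.

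The peaks came from CUT&Tag, in which an antibody brings a transposase to chromatin so that nearby DNA is tagged and sequenced. The cells were haematopoietic stem cells of wild-type C57BL/6J mice, sorted from bone marrow as lineage-negative, Sca-1+, Kit+, CD48- and CD150+, and 2000 to 5000 cells went into a library with 17 to 20 PCR cycles. One antibody recognises ATF2 phosphorylated at T69/71 (T67/71 in the antibody field of the same samples) and the other ATF2 phosphorylated at S490/498, and each was used for 2 libraries. The series belongs to a study of the chromatin protein DEK in Fanconi anemia, but all 4 libraries are from wild-type cells with no treatment named, no age or sex is given, and an IgG or input control is not analysed here. The labels do not say whether the replicates of an antibody came from separate mice, so the spread between them may be technical.

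Zfp genes encode zinc finger proteins, in many of which a row of C2H2 fingers reads a DNA sequence. A large share of the mouse family carries a KRAB domain in front of the fingers; KRAB recruits the corepressor Trim28, which brings the H3K9 methyltransferase Setdb1, HP1 proteins and the NuRD deacetylase complex to silence transposable elements. Such genes arose by tandem duplication and sit in clusters, while many zinc finger genes that stand alone encode conserved regulators without KRAB. ATF2 is a leucine-zipper factor whose preferred site is the palindromic cAMP response element (CRE), TGACGTCA.

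A CRE stood in the promoter of 8 of the 116 members that could be matched to a promoter sequence. Sequences are from RefSeq, GRCm38, and a promoter window runs from 250 bases before a listed start to 50 after it. The carriers were the isolated Zfp335, Zfp367, Zfp473 and Zfp523 and the clustered Zfp266, Zfp426, Zfp457 and Zfp595. Their CREs are shown, for 6 of the 8, because they are the sites at which a known ATF2 sequence and the peaks can be laid side by side. Each is written 5′ to 3′ on the gene's strand, with the CRE in capitals.
Zfp335, chr2:164911783-164911842, minus strand: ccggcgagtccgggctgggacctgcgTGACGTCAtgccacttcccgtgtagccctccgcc
Zfp473, chr7:44748739-44748798, minus strand: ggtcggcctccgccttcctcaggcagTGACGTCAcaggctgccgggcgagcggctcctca
Zfp523, chr17:28177108-28177167, plus strand: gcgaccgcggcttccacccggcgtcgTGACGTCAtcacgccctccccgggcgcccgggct
Zfp426, chr9:20492747-20492794, minus strand: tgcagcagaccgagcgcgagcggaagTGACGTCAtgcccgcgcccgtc
Zfp457, chr13:67306435-67306494, minus strand: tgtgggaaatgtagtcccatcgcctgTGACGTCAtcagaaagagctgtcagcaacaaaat
Zfp595, chr13:67332561-67332614, minus strand: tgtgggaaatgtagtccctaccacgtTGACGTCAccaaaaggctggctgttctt
Zfp473 carries a CRE at each of 2 listed starts; the one shown lies at -152 bases from its start, and the other at the second start. The share of promoters with a CRE was 6.90% among all members (6.67% of clustered and 7.14% of isolated). It was 2.54% among 17492 protein-coding genes and 1.79% among all 32851 windows in the table. Zfp genes with other numbers did not share the higher value, with a CRE in 2.44% of 123 clustered and 0% of 66 isolated promoters. The search covered both strands, and the same letters also hold the shorter core TGACG, which every CRE contains.

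In replicate 1 of T69/71 peaks lay close to most of these CREs. Of the 9 in the 8 promoters, 8 had a summit within 150 bp, against 3 in replicate 2 of T69/71 and 4 in replicate 1 of S490/498. Summits at marked members lay a median of 102, 116 and 110 bp from a listed start in the same order. Every CRE was also sought near a start, so such closeness was partly set in advance. Distances in promoters without a CRE were not compared. At Zfp335, a conserved regulator bound to histone methyltransferase complexes, the summits lay 22, 14 and 42 bp from the CRE in T69/71 replicates 1 and 2 and S490/498 replicate 1. Zfp426, a KRAB gene, had summits 84 and 34 bp away in the T69/71 libraries and none within 1 kb in S490/498 replicate 1. The upstream CRE of Zfp473, whose protein is part of the U7 particle that processes histone messages, lay 120, 224 and 98 bp from the summits in the same 3 libraries. Zfp457 had summits at 74 and 58 bp in the T69/71 libraries. Zfp523, the closest relative of Zfp143, had summits at 62 bp in T69/71 replicate 1 and 80 bp in S490/498 replicate 1. Zfp266 had its single nearby summit in T69/71 replicate 1, at 106 bp with a fold of 8.61. At Zfp367 the CRE lies at a second start, and a separate peak of T69/71 replicate 1 (fold 5.99) had its summit 46 bp away, while the nearest summits of the other libraries lay at 944 and 886 bp.

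Zfp595 shows a limit of marking genes by their ends. It was unmarked in all 4 libraries, yet a summit lay 114 bp from its CRE in replicate 1 of T69/71 (fold 6.99) and 46 bp in replicate 1 of S490/498 (fold 5.54). The listed start that these summits flank, 90 and 22 bp away, lies inside the gene, more than 1 kb from both of its ends. Of the 8 carriers, 5 (62.5%) were marked in both T69/71 libraries, against 30 (27.8%) of the 108 members without a CRE. Over all protein-coding genes the shares were 51.7% of 445 carriers and 21.4% of the rest. The higher share among CRE carriers was thus seen over all genes too.

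Most marked members held no CRE. Among the 35 members with a promoter sequence that were marked in both T69/71 libraries, 14.3% held one, against 1.72% (Zfp595) of the 58 marked in none. The core TGACG stood in 42.9% of the former and 25.9% of the latter, beside 26.2% of all protein-coding genes and 20.8% of all windows. TGANTCA, a loose form of the AP-1 site that allows any middle base, was in 3.45% of member promoters against 8.12% of all genes and 7.81% of windows. The CCAAT box was in 41.4% against 42.3% of all genes and 37.4% of windows. Both were searched on both strands, and neither contains the CRE.

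The strongest member was Zfp143, an activator that binds the promoters of many housekeeping and small RNA genes. Its 150 bases before a listed start are shown because they hold the highest summit among the members, with capitals marking TGACG and its reverse complement CGTCA.
Zfp143, chr7:110061552-110061701, plus strand: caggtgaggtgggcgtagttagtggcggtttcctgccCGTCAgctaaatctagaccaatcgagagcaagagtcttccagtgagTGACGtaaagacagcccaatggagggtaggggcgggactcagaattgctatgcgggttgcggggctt
The fold enrichment at the summit compares signal with local background after 1 is added to each. It was 19.2 and 18.2 in T69/71 replicates 1 and 2 and 17.2 in S490/498 replicate 1. All 3 lists placed this peak near their top, at ranks 83, 111 and 106 of 12464, 14716 and 7132 peaks. The summits lay at -102, -142 and -102 bp from that start, and 107, 63 and 55 fragments covered them. Fragment numbers here are recovered from the deposited fold and −log10 p. For this the fold is taken as the ratio with 1 added to both signal and background. Where the background is below 1, such a fold mostly follows the number of fragments. S490/498 replicate 2 had no summit within 1 kb of an end of Zfp143 or of any other member.

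A second shared sequence was noticed when the promoters of clustered members were read, so it was searched with that knowledge. It is written GANNTGTAG, covers both strands and overlaps no other motif searched. It stood in 36.7% of clustered members (22 of 60) and 7.14% of isolated ones (4 of 56), against 5.71% of all protein-coding genes and 4.2% of all windows. Zfp genes with other numbers, which were not read for it, held it in 24.4% of 123 clustered and 12.1% of 66 isolated promoters. These 4 clustered members are shown because they come from the largest cluster, on chromosome 7, and from the one with the most members marked in both T69/71 libraries, on chromosome 13. Capitals mark the 9 bases.
Zfp146, chr7:30169845-30169885, minus strand: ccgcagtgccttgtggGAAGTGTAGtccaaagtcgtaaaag
Zfp260, chr7:30095033-30095073, plus strand: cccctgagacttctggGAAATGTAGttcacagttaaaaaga
Zfp429, chr13:67399812-67399852, minus strand: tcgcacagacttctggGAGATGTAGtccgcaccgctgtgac
Zfp456, chr13:67375806-67375846, minus strand: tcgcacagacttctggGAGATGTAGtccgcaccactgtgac
Read on the other strand, the run resembles the known recognition sequence of ZNF143, the human counterpart of Zfp143, whose binding was not measured here. Its carriers and the other members had near-equal marked shares. Members with the run were marked in both T69/71 libraries at 30.8% (8 of 26, of which 22 are clustered), and members without it at 30.0% (27 of 90). Over all protein-coding genes the shares were 29.9% of 998 carriers and 21.7% of the rest. The promoters of Zfp429 and Zfp456 were 83.6% identical, and how reads that fit both were placed is not given in the sources used here. Of the 60 clustered members with sequence, 4 were at least 80% identical to another Zfp promoter, and 2 of those 4 were marked in any library.

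In the 3 longer lists the members' marked share lay above that of genes at large. In replicate 1 of T69/71, 54 of 146 were marked (37.0%, exact 95% binomial interval 29.2 to 45.4), beside 27.5% of all protein-coding genes. In replicate 2 of T69/71, 50 were marked (34.2%, 26.6 to 42.5), beside 27.9%. Replicate 1 of S490/498 marked 34 (23.3%, 16.7 to 31.0), beside 17.9%. The share of members was thus 1.34, 1.23 and 1.3 times that of all genes. For T69/71 replicate 2 and S490/498 replicate 1 the members' interval held the genome-wide share, and in replicate 1 of T69/71 it lay above it. These intervals cover counting error only, and neighbouring genes are not independent.

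Replicate 2 of S490/498 stood apart from the rest. Its list held 435 peaks, marked 0.224% of all genes and marked 0 of the 146 members, for which 3 counts would be 2.05% and the exact interval reaches 2.49%. Each result below that uses it is given without it as well. The mean share of members marked was 35.6% ± 1.94 (SD, n = 2) with T69/71 and 11.6% ± 16.5 (SD, n = 2) with S490/498, and the difference of 24 points did not pass an exact two-sided permutation test over libraries (p = 0.333, the smallest that 2 against 2 allows). Without that replicate the difference was 12.3 points, while the S490/498 libraries themselves stood at 23.3% and 0%. The longer T69/71 lists also mark more genes of any kind, so the antibodies are not compared further.

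**Figure D1:**
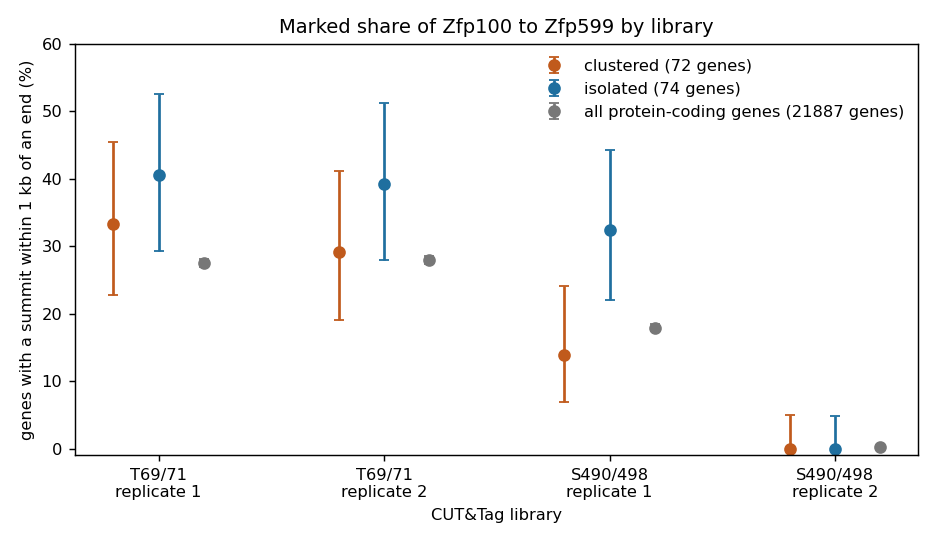
Share of genes with a summit within 1 kb of an end (y axis, percent) in each library (x axis) for the 72 clustered and 74 isolated members and for all 21887 protein-coding genes; points are shares and bars exact 95% binomial intervals. Isolated members lie above clustered ones in the 3 longer lists, by 18.5 points in S490/498 replicate 1, and both stand at 0 in S490/498 replicate 2.

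Both T69/71 libraries marked 38 members (26%, 19.1 to 33.9), beside 21.1% of all genes. Those 38 were 70.4% of the members marked in replicate 1 and 76.0% of those marked in replicate 2, near the 76.7% and 75.7% for all marked genes. Of the 34 members marked with S490/498, 32 (94.1%) were also marked in a T69/71 library, as were 93.9% of all genes so marked. Marking in both T69/71 libraries and S490/498 replicate 1 held for 24 members (16.4%, 10.8 to 23.5), beside 14.3% of all genes. No library marked 78 members (53.4%), against 64.6% of all genes.

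Marks at marker genes of the sorted cells lay near the background. Of 14 blood stem cell genes, 5, 4 and 3 were marked in T69/71 replicates 1 and 2 and S490/498 replicate 1, or 35.7%, 28.6% and 21.4%, close to the shares of all genes, and of 10 neural genes, 0, 1 and 1. A peak does not measure expression, so these counts do not check the label.

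The 24 members marked in 3 libraries were led by genes that stand alone. Behind Zfp143 came Zfp367, a gene also known as ZFF29, with folds of 15.5 and 13.6 in the T69/71 replicates and 12.9 in S490/498 replicate 1. Zfp438 followed with 13.5, 13.8 and 14.7 in the same order, and Zfp593, a nuclear factor of large ribosomal subunit assembly, with 9.90, 11.4 and 13.3. These 4 genes were high in every one of the 3 libraries, and none is clustered.

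Several others are conserved regulators of known function. Zfp335 had 10.4, 5.71 and 9.41, and its T69/71 replicate 2 summit, covered by 12 fragments, was the weakest of the 3. Zfp131, a BTB-domain protein, had 8.14, 8.64 and 7.33. Zfp277, known as a partner of the Polycomb protein Bmi1, had 7.58, 9.53 and 8.61. Zfp384, the factor also called CIZ or NMP4 and a fusion partner in human B-cell leukaemia, had 4.91, 7.45 and 8.0, and Zfp473 had 11.0, 8.30 and 10.1. At Zfp384 the T69/71 replicate 2 summit belongs to a separate peak, -200 bp from a listed start. The summits of T69/71 replicate 1 and S490/498 replicate 1 lay 26 and 184 bp from another start. The order of the 3 libraries differed from gene to gene, so no antibody was the higher one throughout. The widest spread was at Zfp513, with 5.54 and 12.7 in the T69/71 replicates and 8.62 in S490/498 replicate 1.

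The remaining isolated members of this group had folds between 4.21 and 11.4. Zfp526 had 7.15, 10.2 and 7.71, Zfp142 had 6.97, 8.88 and 7.41, Zfp113 had 6.60, 8.01 and 4.82, and Zfp184 had 11.4, 6.45 and 8.48. Zfp511 had 5.74, 4.76 and 6.72, and Zfp317 had 4.21, 4.86 and 5.31. Some of these peaks also belong to another gene: Bcs1l lies within 1 kb of the Zfp142 summit, Dedd2 of Zfp526, Vrk3 of Zfp473, Dock4 of Zfp277, Ppm1g of Zfp513, Gm46390 of Zfp131 and Tubgcp2 of Zfp511. Which of the paired genes such a peak serves cannot be told from a summit. Over all marked members, another gene end lay that close in 25.9%, 28% and 32.4% of cases in the 3 libraries, against 32.9%, 31.2% and 36.6% of all marked genes.

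**Figure D2:**
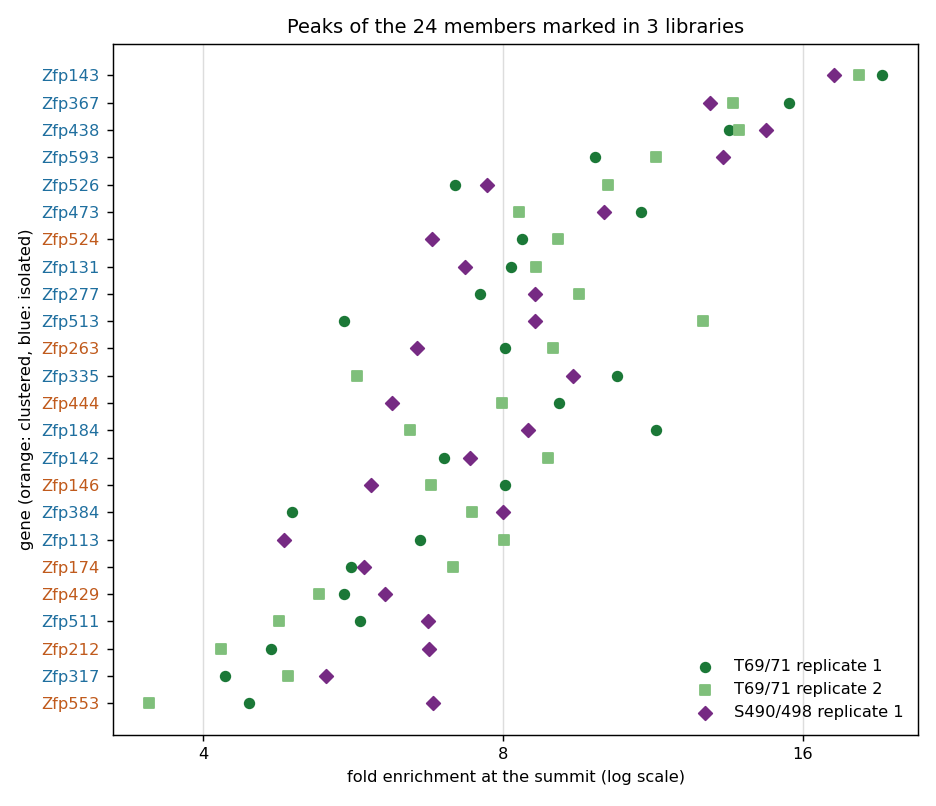
Fold enrichment at the summit (x axis, log scale) for the 24 members marked in 3 libraries (y axis, by mean rank with the strongest at the top; orange names are clustered, blue names isolated), 1 point per library. Zfp143 lies at 17.2 to 19.2 in all 3, and the highest clustered gene in the order is Zfp524, at 6.78 to 9.08.

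Clustered members among the 24 had moderate or low folds. Zfp524 had 8.35, 9.08 and 6.78, with Fiz1 within 1 kb of the summit. Zfp263 and Zfp444, which carry a SCAN domain used for pairing, had 8.03, 8.97 and 6.56 and 9.10, 7.98 and 6.18. Zfp174, another SCAN protein, had 5.63, 7.12 and 5.80, where the T69/71 replicate 2 summit lay at its 3′ end beside Naa60 and the other summits at its start. Zfp146, which has fingers but no KRAB, had 8.03, 6.77 and 5.90, and Zfp429 had 5.54, 5.23 and 6.09. The lowest T69/71 folds of the clustered ones were at Zfp212, with 4.68, 4.17 and 6.74, and Zfp553, with 4.45, 3.53 and 6.80.

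Peaks at clustered members were also lower as a group. The highest fold at any clustered member was 10.1, 9.21 and 6.80 in the 3 libraries, against 19.2, 18.2 and 17.2 at isolated ones. Medians over marked genes were 6.83, 5.44 and 6.13 for clustered members, 7.2, 7.72 and 7.56 for isolated ones and 7.2, 7.64 and 6.91 for all protein-coding genes. They cover marked genes alone, so they describe those peaks and not the families.

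The evidence behind a single mark was often thin. A member's summit was covered by a median of 10, 8 and 9.5 fragments in T69/71 replicates 1 and 2 and S490/498 replicate 1. At 19, 27 and 14 of the marked members it was 8 or fewer. Zfp429 rested on 6, 5 and 6 fragments and Zfp553 on 6, 4 and 10. At such depth a gene missing from a list cannot be read as unbound.

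Summits gathered at starts. Among marked members with a known strand, the summit was nearest to the start end of the gene in 45 of 46, 44 of 46 and 27 of 27 in the 3 libraries. The median distance to a listed start was 102, 116 and 110 bp. A summit lay within 300 bp of one in 43 of 46, 35 of 46 and 23 of 27. The summits nearest to a 3′ end were those of Zfp329, with summits 152 and 151 bp beyond its 3′ end in the T69/71 libraries and folds of 7.35 and 6.80, and Zfp174 as above.

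**Figure D3:**
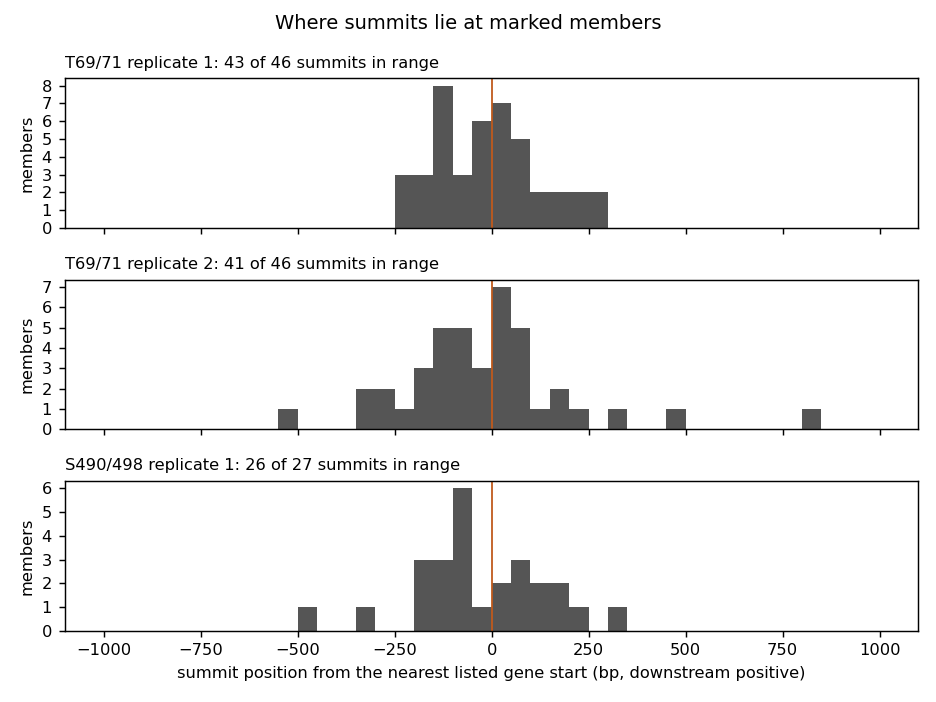
Number of marked members (y axis, 50 bp bins) by the position of the summit from the nearest listed gene start (x axis, bp, downstream positive), 1 panel per library. Most summits lie within 300 bp on either side of a start: 43 of 46, 35 of 46 and 23 of 27 from top to bottom.

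Clustered members had a lower marked share than isolated ones in each of the 3 longer lists, a difference that did not pass the test over libraries. The shares were 33.3% against 40.5% in T69/71 replicate 1, 29.2% against 39.2% in replicate 2, and 13.9% (6.87 to 24.1) against 32.4% (22.0 to 44.3) in S490/498 replicate 1, with 0 in both groups in the last library. Over the 4 libraries the mean clustered minus isolated difference was -8.94 points (exact two-sided sign-flip permutation test, p = 0.25, smallest possible 0.125). Without S490/498 replicate 2 it was -11.9 points (p = 0.25 in the same exact test, the smallest 3 libraries allow). All libraries score the same genes, so libraries that lean one way are not separate evidence about which genes do.

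Both T69/71 libraries marked 16 of 72 clustered members (22.2%) and 22 of 74 isolated ones (29.7%), a clustered minus isolated difference of -7.51 points. Its size depended on how ends are scored. It was -0.751 points with a window of 500 bp. With windows around listed starts alone, which takes in starts inside a gene, it was -15.8 points, at 21.7% of 60 clustered and 37.5% of 56 isolated members. By that scoring the 116 members with sequence were marked at 42.2%, 41.4% and 25.9% in the 3 libraries and at 29.3% in both T69/71 libraries. The same shares over all 17492 genes were 29.4%, 29.6%, 19.2% and 22.9%.

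The overlap of the antibodies' marks was compared within each group. Of clustered members marked in T69/71 replicate 1, 8 of 24 (33.3%) were also marked in S490/498 replicate 1, against 20 of 30 isolated ones (66.7%) and 57.7% of all genes. Starting from T69/71 replicate 2 the shares were closer, at 10 of 21 (47.6%) and 18 of 29 (62.1%), with 54.5% of all genes. Marking in 3 libraries held for 8 clustered members (11.1%) and 16 isolated ones (21.6%).

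Among Zfp genes outside the number range the shares lay closer together. Of 140 clustered ones, 28 (20.0%, 13.7 to 27.6) were marked in both T69/71 libraries, and of 81 isolated ones, 16 (19.8%, 11.7 to 30.1). In T69/71 replicate 2 the shares were 23.6% and 28.4%, and in S490/498 replicate 1 17.1% and 16%. At listed starts, both T69/71 libraries marked 20.3% and 24.2%, lower in clusters as among the members. Whether the members' difference is larger was not tested. Non-Zfp genes within 100 kb of a clustered member were marked in both T69/71 libraries at 22.9% (153 genes) and those near an isolated member at 23.5% (353 genes). In T69/71 replicate 1 these neighbours stood at 28.1% (near clustered) against 34.3% (near isolated). In T69/71 replicate 2 they stood at 29.4% against 33.1%, and in S490/498 replicate 1 at 21.6% against 21.2%. The olfactory receptor genes, another family in tandem clusters, were marked in both T69/71 libraries at 1 of 1106.

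Base composition of the promoter went with these marks. A promoter was called CpG-rich when its window had an observed to expected CpG ratio of at least 0.6 and a GC content of at least 50%, and CpG-poor otherwise. CpG-rich promoters made up 50.0% of the clustered (30 of 60) and 78.6% of the isolated members (44 of 56), beside 48.3% of all protein-coding genes. The median number of CpGs in a window was 13, 20 and 15. None of the olfactory receptor promoters was CpG-rich.

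Within the CpG-rich class the difference depended on the scoring. At gene ends, both T69/71 libraries marked 36.7% of CpG-rich clustered members (11 of 30) and 38.6% of CpG-rich isolated ones (17 of 44), beside 37.9% of other CpG-rich genes. At listed starts the shares were 30% and 40.9%, beside 40.5% of all CpG-rich genes. In S490/498 replicate 1 the shares were 23.3% and 36.4%, at gene ends, beside 31.9% of all CpG-rich genes. Those shares rest on 7 and 16 marked genes.

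Members with CpG-poor promoters had a higher marked share than CpG-poor genes at large. Both T69/71 libraries marked 7 of 42 (16.7%, 6.97 to 31.4), against 7.36% of other CpG-poor genes. With windows at listed starts, 28.6%, 23.8% and 14.3% of these 42 were marked in the 3 libraries, against 9.54%, 9.93% and 5.70% of all CpG-poor genes. CpG-poor Zfp genes with other numbers lay near the members, at 14.5% (clustered) and 14.7% (isolated) in both T69/71 libraries by that scoring. The class at large takes in many promoters with almost no CpG. In promoters with 10 to 14 CpGs, 23.5% of 17 clustered members and 19.2% of all genes were marked in both T69/71 libraries, and with 5 to 9 CpGs, 16.7% of 12 and 8.80%. These small groups leave the members' own shares uncertain.

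**Figure D4:**
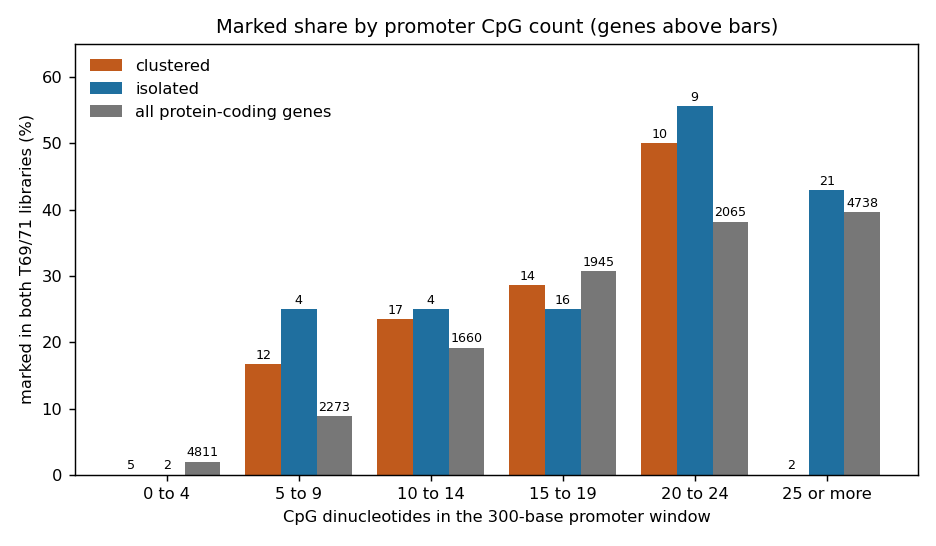
Share of genes marked in both T69/71 libraries (y axis, percent) by the number of CpGs in the 300-base promoter window (x axis) for clustered members, isolated members and all protein-coding genes; the number of genes stands above each bar. Among all genes the share rises from 1.97% with 0 to 4 CpGs to 39.6% with 25 or more, and the member groups hold 2 to 21 genes each.

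Marked members were spread unevenly over clusters. Of the 34 clusters that hold a member, 11 had a member marked in both T69/71 libraries. In clusters of 2 Zfp genes 1 of 16 members was so marked (6.25%), in clusters of 3 to 5 genes 4 of 22 (18.2%), and in clusters of 6 or more 11 of 34 (32.4%). The larger clusters were thus not the less marked ones.

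The largest cluster, on chromosome 7 from 29768552 to 30169775, holds 15 Zfp genes, 7 of them members. Zfp146 was marked in 3 libraries. Zfp566 was marked in T69/71 replicate 2 (5.02) and S490/498 replicate 1 (5.59). Zfp260 (5.48) and Zfp382 (5.46) were each marked in T69/71 replicate 1 alone. The TGTAG run stood at Zfp146, Zfp260 and Zfp566, but also at Zfp420 and Zfp383, which no library marked. Zfp382 lacked it, and Zfp568 had no promoter sequence.

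The cluster with the most members marked in both T69/71 libraries lies on chromosome 13, from 67038594 to 67553152, with 14 Zfp genes and 7 members. Those marked were 3 of the 7: Zfp457 with folds of 7.37 and 4.31, Zfp456 with 7.27 and 5.10, and Zfp429, which also had the S490/498 peak. In a smaller group on chromosome 16, from 3744099 to 3884377, all 3 Zfp genes are members (Zfp263, Zfp174 and Zfp597), and T69/71 replicate 2 marked all 3. By contrast 6 of the 7 members on chromosome 7 from 24081877 to 24316698 were marked in no library, and Zfp180 alone was marked, at 7.04 and 6.80 in the T69/71 replicates.

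**Figure D5:**
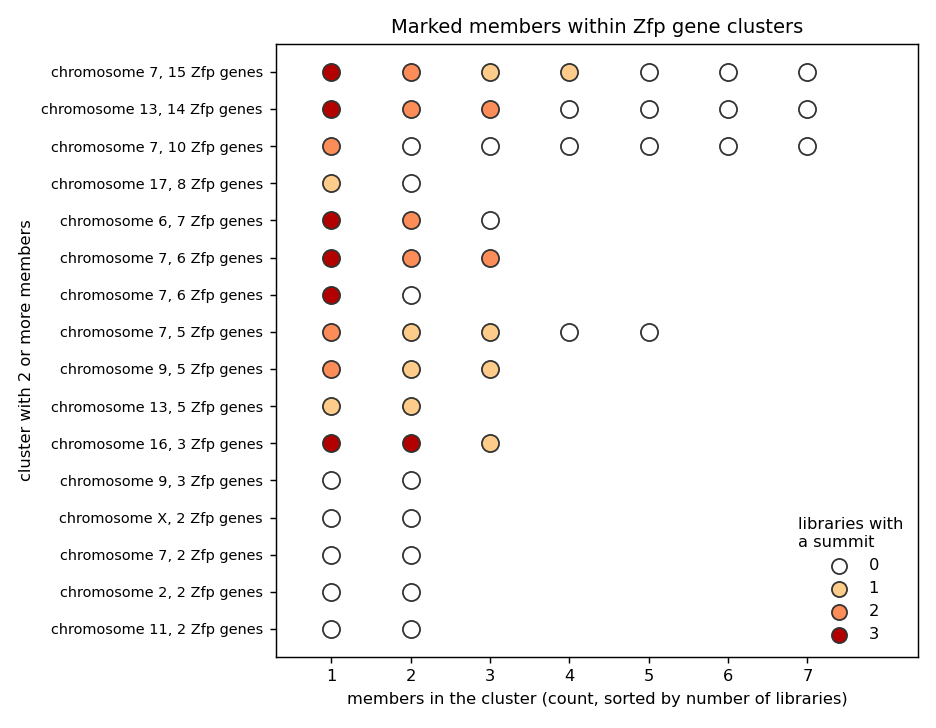
The 16 clusters with 2 or more members (y axis, by chromosome and number of Zfp genes), with 1 circle per member (x axis, count) shaded by the number of libraries that marked it. Circles for 3 libraries occur in clusters of 3 or more Zfp genes, and the 5 clusters with 2 or 3 Zfp genes at the bottom hold unmarked members alone.

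Genes of the KRAB repression machinery had a higher marked share than the zinc finger genes themselves, a difference that was not tested. Of 26 listed partners, 17, 17 and 13 were marked in T69/71 replicates 1 and 2 and S490/498 replicate 1, and 14 (53.8%, 33.4 to 73.4) in both T69/71 libraries, beside 21.1% of all genes. Promoters of the partners were not sorted by CpG class. Among all CpG-rich genes 37.9% were marked in both T69/71 libraries. The list was drawn up with earlier results of these data known, and its count is a description. Trim28, the corepressor that KRAB binds, had folds of 10.5, 6.76 and 6.25, with Gm31649 within 1 kb of its summit. Its paralogs Trim24 and Trim33 had 10.9, 13.4 and 6.46, and 4.95 and 7.02 with no S490/498 peak.

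The NuRD and HP1 genes varied widely. Hdac1, the deacetylase of NuRD, had 12.7, 15 and 10.0, and the histone-binding subunit gene Rbbp4 had 13.5, 11.9 and 13.6, with Zbtb8os within 1 kb. Mbd3, also of NuRD, had 11.1, 11.8 and 8.70, and the remodeller Chd4 6.2, 5.56 and 5.65. Cbx3, an HP1 gene, had 13.3, 10.9 and 14.7 at a peak shared with Hnrnpa2b1. Apart from Chd4, these genes lay above the median fold of all marked genes (7.2, 7.64 and 6.91) in each of the 3 libraries. Mta2 (5.65, 9.21 and 5.06), Cbx5 (8.26, 7.42 and 5.91) and Rbbp7 (6.37 and 5.79, no S490/498 peak) did not. The NuRD gene Hdac2 and the HP1 gene Cbx1 were marked in T69/71 replicate 1 alone, at 7.13 and 7.47. The methyltransferase gene Setdb1 had folds of 3.34 in T69/71 replicate 2 and 3.54 in S490/498 replicate 1 and no peak in T69/71 replicate 1. Its cofactor gene Atf7ip had 7.58 and 9.64 in the T69/71 libraries alone. Mta2, Cbx5, Sumo2, Morc3 and Rbbp7 were also marked in both T69/71 libraries, while Dnmt1, Dnmt3a, Chd3, Mta1 and Mta3 were among those marked in no library.

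Unmarked members were about as far from a peak as unmarked genes at large. The nearest summit was over 10 kb away for 77.2% of the 92 members unmarked in T69/71 replicate 1, 72.9% of 96 in replicate 2 and 86.6% of 112 in S490/498 replicate 1, beside 79.8%, 77.6% and 86.6% of all unmarked protein-coding genes. At the edge of the window the calls turned on short distances. Just inside it lay Zfp335 at 795 bp and Zfp384 at 678 bp in T69/71 replicate 1, Zfp296 at 846 bp in replicate 2, and Zfp219 at 969 bp in S490/498 replicate 1. Just outside it lay Zfp219 at 1204 bp and Zfp574 at 1435 bp in T69/71 replicate 1, Zfp236 at 1183 bp and Zfp369 at 1190 bp in replicate 2, and Zfp369 at 1389 bp and Zfp574 at 1476 bp in S490/498 replicate 1. Zfp574 had high folds of 13.5, 12.3 and 10.1 in the 3 libraries and is counted as unmarked. These distances run from a gene end. From a listed start, the T69/71 replicate 1 summits of Zfp335 and Zfp384 lay at -40 and 26 bp. That of Zfp219 lay 223 bp from one, and scoring at listed starts marked Zfp219 in 3 libraries. The Zfp296 summit lay 846 bp from a start as well.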

How the data were processed

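Each library has its own narrowPeak list. The submitters' processing notes name FastQC 0.11.5 and Bowtie2 2.2.9, then ChIPseeker and MACS2, with mm10 as the build. Settings, duplicate removal and the placing of reads that match several copies: not given in the sources used here. For each peak the authors deposited a score, a fold enrichment (a ratio to local background), and −log10 p and −log10 q at the summit; each refers to its own library. Peaks on the assembled chromosomes numbered 12464 and 14716 (T69/71) and 7132 and 435 (S490/498).

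Gene ends came from a RefSeq table of GRCm38.p6 and starts from its promoter table, which matched 116 of the 146 members. Marking used a summit within 1 kb of either end and was tested on simulated data. Fragments at a summit were solved from fold and −log10 p. Protein sequences and a genome were not used here; KRAB domains and fingers, planned, were therefore not counted. Shares carry exact 95% binomial intervals; libraries were compared with exact permutation tests (Python 3.11.15, SciPy 1.17.1).

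Members, lists, tests and named genes were chosen with earlier results of these data known. The named genes were up to 20 members with a peak in at least 3 libraries by mean rank of −log10 q, any member in S490/498 replicate 2, up to 4 in the largest cluster and in the one with most members marked in both T69/71 libraries, KRAB partners in both T69/71 libraries, and members at the edge of the window. CRE carriers, Zfp180, Zfp212, Zfp317, Zfp329, Zfp511, Zfp595, Zfp597, Zfp553 and the other KRAB partners were added after their values were seen. So were Zfp341, Zfp446, Zfp458 and Zfp469, named for a summit inside the gene. Alternatives covered the window, q, list length, cluster distance, shared ends, left-out libraries and CpG class.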

Additional observations from a re-analysis of the deposited data

Results flagged for a closer look

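Some members with no summit near an end had one further inside the gene, a signal that the marking does not count. In T69/71 replicate 1 this held for 17 of 92 unmarked members (18.5%, exact 95% interval 11.1 to 27.9), in T69/71 replicate 2 for 16 of 96 (16.7%, 9.84 to 25.6) and in S490/498 replicate 1 for 10 of 112 (8.93%, 4.36 to 15.8). Among all unmarked protein-coding genes the shares were 13.6%, 15.4% and 8.24%, near those of the members. No control library gives a background for these values, and they were noted because they exceed the shares of 3.26%, 3.12% and 2.68% that a count of 0 allows. Zfp341, Zfp369, Zfp446, Zfp469 and Zfp574 had such a summit in all 3 libraries. At Zfp446 the folds were 11.1, 11.3 and 8.39. At Zfp458, in the chromosome 13 cluster, the summits lay 174 and 127 bp from a listed start in T69/71 replicate 1 (8.61) and S490/498 replicate 1 (6.74). Zfp473 had the single such summit of S490/498 replicate 2, 7362 bp from an end with a fold of 8.07. A summit within 1 kb of a listed start accounted for 5, 3 and 3 of these genes in the 3 libraries. Genes without a listed start, among them Zfp369, Zfp446, Zfp469 and Zfp574, could not be counted this way.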

How the results depend on the processing

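The count of 38 members marked in both T69/71 libraries kept within 1.5 times under 6 of 8 alternatives; it was 23 with −log10 q of at least 5 and 2 when each list was cut to its 435 strongest peaks, where S490/498 replicate 1 marked 3 in place of 34. The clustered minus isolated difference in both T69/71 libraries (main −7.51 points) kept its sign throughout and moved to −0.751 with a 500 bp window, −12.9 with 2 kb, −15.8 at listed starts only, −11.9 with −log10 q of at least 5, −2.70 with the strongest peaks, −4.61 with neighbours within 50 kb, −0.0417 with only members as neighbours and −5.47 without genes sharing an end; added after seeing the data, it was −1.97 in CpG-rich and −11.7 in CpG-poor promoters, and leaving out a T69/71 library gave −10.0 to −7.21. The cause of these moves was not tested. The mean difference over 4 libraries stayed negative and short of the threshold in all 17 alternatives, and the T69/71 minus S490/498 difference stayed positive and short of it in all 11, with the replicate block (paired by number, which the labels do not explain) giving 24 points and an exact p of 0.5; leaving out a library gave 12.3 to 35.6. Neither design can reach 0.05. Of 174 named-gene results, 124 kept their number of libraries. Fragment depth limits every absence.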
